A study of Mus musculus with 41 samples.

Results

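The 37 genes of the mouse mitochondrial genome were followed through kidney injury in 40 RNA libraries of known group. They are all genes of the count table whose symbol starts with mt-, 37 of 48795 listed genes, and comprise 13 messenger RNAs, 2 ribosomal RNAs and 22 transfer RNAs. Mice had the blood supply of a single kidney closed and reopened (unilateral ischemia-reperfusion injury, UIRI), and in some the uninjured kidney was later taken out (nephrectomy, Nx). The design asks how the injured kidney fares with and without its partner, and at which time after injury. RNA from a frozen slice of a kidney pole was made into QuantSeq 3′ FWD libraries, which prime on poly(A) and read near the 3′ end, so that a gene contributes reads from its end rather than along its length.

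The first cohort holds 4 groups of 6 libraries. They are UIRI+Nx d7 (UIRI, nephrectomy of the uninjured kidney on day 3, kidney taken on day 7), UIRI d7 (UIRI, sham nephrectomy on day 3, taken on day 7), UIRI d3 (UIRI, taken on day 3) and Control (no UIRI). Per the design text these were male mice of 8 to 10 weeks, with ischemia of the left side lasting 21 min while the body was held at 34 °C. Whether Control mice had sham surgery, and when their kidneys were taken, is not given there. The second cohort, whose titles carry the prefix WT, holds UIRI+Nx d7 (n = 4), UIRI d7 (n = 6) and UIRI d3 (n = 6), with no Control. For that cohort the labels leave out the sex and age of the mice, the length and temperature of ischemia and the nephrectomy day, and they give the strain of neither. For the second cohort nothing says that the libraries come from separate animals, so its p-values measure the spread between these libraries, which may be technical.

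Mitochondrial DNA is a small circle that codes for subunits of respiratory complexes I, III, IV and V and for the ribosomal and transfer RNAs that translate them inside the organelle. Both of its strands are transcribed by POLRMT with TFAM into long precursors, from which the transfer RNAs are cut out and thereby free the messenger and ribosomal RNAs between them. The heavy strand carries nearly all messages and both ribosomal RNAs, while the light strand carries mt-Nd6 and a set of transfer RNAs. Most mitochondrial messages gain short poly(A) tails, and in human cells mt-Nd6 is known as the exception. Kidney tubule cells, above all those of the proximal tubule and the thick ascending limb, are rich in mitochondria because salt transport runs on their ATP. All other respiratory subunits, mitochondrial ribosomal proteins and transcription factors come from nuclear genes.

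Of these genes, 28 are transcribed from the heavy strand and 9 from the light strand. Messenger RNAs took 63.4% of all mitochondrial counts over the 40 libraries, ribosomal RNAs 36.0% and transfer RNAs 0.585%. A set of 6 genes took 96.4% of them. These were mt-Rnr2, the large ribosomal RNA, with 25.6%, mt-Nd4 with 24.1%, mt-Cytb with 17.2%, mt-Nd1 with 10.9%, mt-Rnr1, the small ribosomal RNA, with 10.4% and mt-Nd2 with 8.15%. The light strand gave 0.392%. Shares of 3′ counts depend on how each 3′ end is primed and mapped and are not levels per length, so the genes are compared here between groups and not with each other.

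Both complex V messages, the complex IV messages mt-Co2 and mt-Co3 and the complex I message mt-Nd4l were close to missing from the table, while the complex IV message mt-Co1 was well counted. Summed over 40 libraries, mt-Co2 had 31 counts, mt-Atp6 had 26, and mt-Atp8, mt-Co3 and mt-Nd4l had 17 each, against 6555094 for mt-Nd4. These 5 genes lie inside a stretch of mitochondrial DNA that is also present in the nuclear genome. GENCODE's gene models on GRCm38, which the notes name for cohort 1 only, place pseudogenes on the minus strand of chromosome 1 from 24611535 to 24616188 that match mitochondrial bases 6390 to 11042 in order. Identity was 100% for mt-Co2 (Gm28661), mt-Atp6 (Gm10925), mt-Co3 (Gm28437), mt-Nd4l (Gm10222) and the first 876 bases of mt-Nd4 (Gm28439), and 99.71% with 1 mismatch for mt-Nd3 (Gm28438).

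The 3′ ends of mt-Co3 and of its nuclear copy Gm28437 are shown because 3′ reads fall at such ends and the letters cannot assign a read to either gene. Both are given 5′ to 3′ in gene orientation, mt-Co3 at MT:9331-9390 on the plus strand and Gm28437 at chr1:24613189-24613247 on the minus strand (GRCm38, GENCODE).
mt-Co3: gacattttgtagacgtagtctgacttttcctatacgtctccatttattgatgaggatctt
Gm28437: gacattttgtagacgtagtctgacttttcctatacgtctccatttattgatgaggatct
The edge of the copied stretch lies inside mt-Nd4, at MT:11013-11072 on the plus strand, where capitals mark the bases past the annotated nuclear copy.
mt-Nd4: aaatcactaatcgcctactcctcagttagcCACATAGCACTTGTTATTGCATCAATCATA
A copy on chromosome 2 is less alike (97.6% identity and 37 differing bases over 1545), as mt-Co1 at MT:5787-5846 (plus strand) and Gm13340 at chr2:22589129-22589188 (minus strand) show, with capitals at the bases that differ.
mt-Co1: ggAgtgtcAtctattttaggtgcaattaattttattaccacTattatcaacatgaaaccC
Gm13340: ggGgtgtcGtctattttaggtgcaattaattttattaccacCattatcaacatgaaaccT

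Of the 37 genes, 11 lie wholly inside the stretch copied on chromosome 1, namely 6 messenger and 5 transfer RNAs. Of these 11, 9 stayed below 10 counts in every library and 4 transfer RNAs (mt-Ts1, mt-Td, mt-Tk and mt-Tg) had no count at all. The highest count inside the stretch was 258, for mt-Nd3, and mt-Tr reached 82. Of the 26 genes not wholly inside, 2 stayed below 10 counts throughout, mt-Tn and mt-Th. All 11 together gave 0.0115% of mitochondrial counts. Of the 11, mt-Atp8 and the 5 transfer RNAs matched no annotated nuclear transcript themselves and lie inside by position only. mt-Co1, which is not wholly inside but has a copied 3′ end, had 397839 counts. A count near 0 in the stretch is not read here as a level of the gene, and its cause was not tested. Reads that fit 2 places equally well may have been discarded or listed elsewhere. The setting for such reads is not given in the sources used here.

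**Figure D1:**
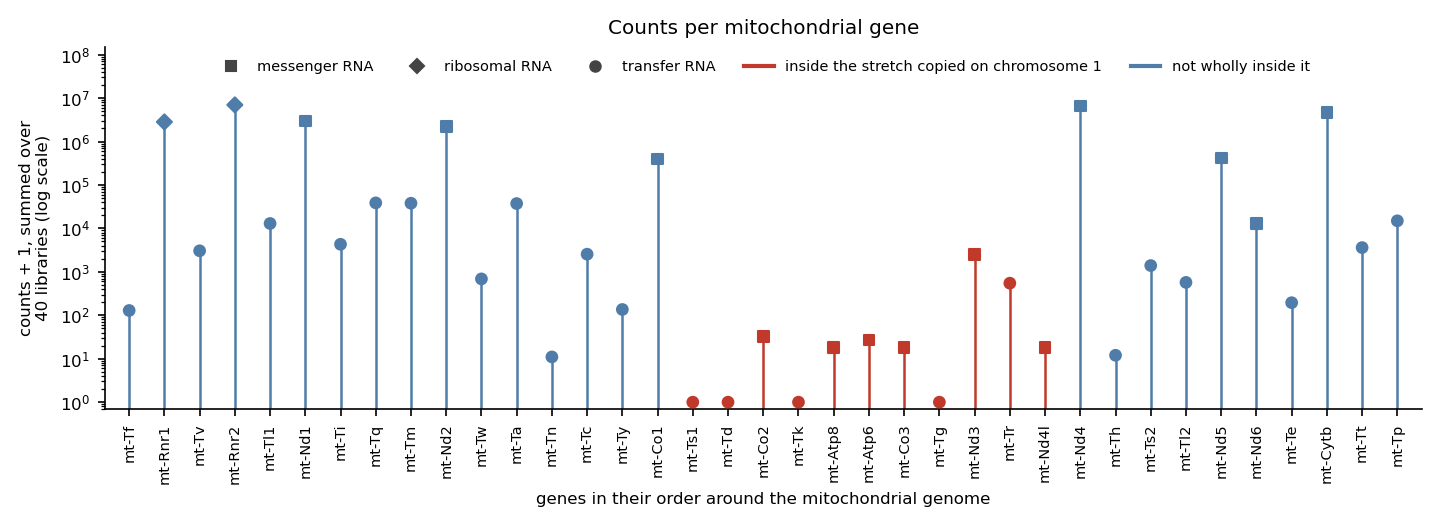
Counts plus 1 summed over 40 libraries (log axis) for each of the 37 mitochondrial genes in their order along the genome, with genes inside the stretch copied on chromosome 1 in red. Within that stretch 9 of 11 genes stayed below 10 counts in every library, while mt-Nd4, which runs past its end, had 6555094.

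The nuclear copies themselves had counts. Gm28437, the copy of mt-Co3, had 143 to 10014 counts per library, although its mitochondrial twin never passed 7. In counts scaled to a common library size (CPM, with library sizes adjusted by edgeR's TMM factors), Gm28437 averaged 64.3 ± 18.2 in UIRI+Nx d7, 45.5 ± 16.6 in UIRI d7, 79.7 ± 45.3 in UIRI d3 and 285 ± 281 in Control of the first cohort (SD, n = 6 each). Control replicate 1 stood at 823 and the other 5 Control libraries at 98.5 to 369, so the Control mean rests largely on that library. In edgeR's quasi-likelihood test with Benjamini-Hochberg adjustment over all genes it fell in UIRI d7 against Control by 2.65 on the log2 scale (adjusted p 3.6e-05). Which genome these reads came from cannot be told apart by sequence.

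Filtering on low counts left 23 of the 37 genes in each cohort, 8 messenger, 2 ribosomal and 13 transfer RNAs. The 14 genes left out were mt-Co2, mt-Co3, mt-Atp6, mt-Atp8, mt-Nd4l and 9 transfer RNAs, and 9 of the 14 lie inside the copied stretch. A gene passes with enough counts in as many libraries as the smallest group holds, whichever their group. A rare transfer RNA such as mt-Ts2 can therefore pass on its Control values alone, and counts over the 23 describe those 23 only. Libraries held 5090418 to 33362940 counts. The column names part the libraries into blocks by sheet and library number, called 1a, 1b and 2b in the first cohort and 2a and 2c in the second. Block 2b holds no UIRI d7 library and block 2c no UIRI d3 library, and the labels name no batch.

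The mitochondrial share of all counts was lowest in UIRI d7 in both cohorts. In the first cohort the lowest, median and highest share were 3.36%, 4.80% and 5.66% in UIRI+Nx d7, 2.27%, 2.52% and 3.85% in UIRI d7, 3.28%, 4.20% and 5.27% in UIRI d3, and 6.21%, 8.27% and 10.6% in Control. Every injured kidney lay below every Control kidney, and the 3 injured groups overlapped. In the second cohort the shares were 5.12%, 4.41%, 2.94% and 3.32% in the 4 UIRI+Nx d7 libraries, and the lowest, median and highest were 2.40%, 2.74% and 3.40% in UIRI d7 and 3.56%, 4.26% and 5.41% in UIRI d3. UIRI d7 and UIRI d3 did not overlap there, whereas UIRI+Nx d7 overlapped both. Within block 1a the means were 5.17% in UIRI+Nx d7, 3.03% in UIRI d7, 4.18% in UIRI d3 and 9.44% in Control, and within block 2b they were 4.44% in UIRI+Nx d7, 4.55% in UIRI d3 and 7.69% in Control. Leaving out hemoglobin and Gm42418, a gene that overlaps ribosomal RNA, gave 4.79%, 2.88%, 4.38% and 8.52% in UIRI+Nx d7, UIRI d7, UIRI d3 and Control of the first cohort, and 4.28%, 2.98% and 4.65% in the 3 groups of the second. The order of the group means was kept in each of these cases but that of UIRI+Nx d7 and UIRI d3 in block 2b. These 2 groups also changed order in block 2a of the second cohort, at 4.77% in UIRI+Nx d7 and 4.37% in UIRI d3. In bulk tissue, fewer mitochondria-rich cells and less mitochondrial RNA per cell cannot be told apart.

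**Figure D2:**
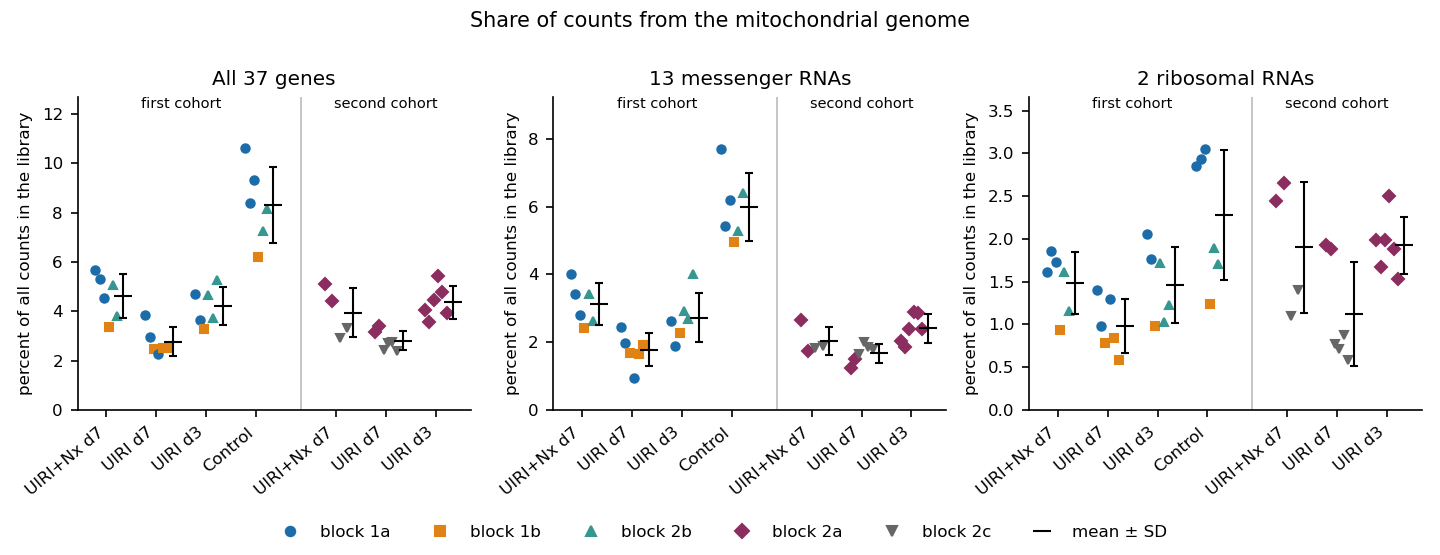
Share of all counts (percent of library total) from all 37 mitochondrial genes, the 13 messenger RNAs and the 2 ribosomal RNAs, per library; points are libraries, marker shapes are blocks, and bars give mean and SD. All 18 injured libraries of the first cohort lie below the lowest Control library at 6.21%.

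The share without the uninjured partner kidney was 1.86 percentage points higher than with it in the first cohort (UIRI+Nx d7 minus UIRI d7, 1.67 times). Of the 36 pairs of libraries, 34 had the UIRI+Nx d7 library higher. The same difference was 1.13 points in the second (1.40 times), with 21 of 24 pairs higher. Within block 1a the means were 5.17% in 3 UIRI+Nx d7 libraries and 3.03% in 3 UIRI d7 libraries, within block 2a 4.77% and 3.28% (n = 2 each), and within block 2c 3.13% in 2 libraries and 2.58% in 4. In block 1b the 1 UIRI+Nx d7 library had 3.36%, and 3 UIRI d7 libraries averaged 2.51%. The direction was the same in each of these blocks, and no test is given for a sum over genes. Messenger RNAs alone were nearly equal in block 2c, at 1.859% in UIRI+Nx d7 and 1.825% in UIRI d7, while ribosomal RNAs were at 1.253% and 0.737%. In block 2a messenger RNAs were at 2.198% and 1.368%, and in block 1a at 3.417% and 1.785%.

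Between day 3 and day 7 after UIRI alone the share was lower at the later time. UIRI d7 lay 1.45 points below UIRI d3 in the first cohort, with 3 of 36 pairs going the other way, and 1.55 points below it in the second, with 0 of 36. Within block 1a the means were 3.03% in UIRI d7 and 4.18% in 2 UIRI d3 libraries, and within block 2a 3.28% in 2 UIRI d7 libraries and 4.37% in 6 UIRI d3 libraries. UIRI+Nx d7 and UIRI d3 differed by less than their pooled SD in both cohorts, by 0.404 points in the first (pooled SD 0.836) and by -0.422 in the second (pooled SD 0.806). Within block 2b the first of these was -0.115 points and within block 2a the second was 0.397, each with the opposite sign.

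The parts of the share moved unequally. Messenger RNAs made up 3.12 ± 0.610% of counts in UIRI+Nx d7, 1.77 ± 0.488% in UIRI d7, 2.73 ± 0.722% in UIRI d3 and 5.99 ± 1.001% in Control of the first cohort. Those of the second made up 2.03 ± 0.412%, 1.67 ± 0.275% and 2.41 ± 0.416% in the 3 injured groups in the same order. The messages alone put the group means in the same order as the total share in both cohorts. Transfer RNAs stood at 0.0161% in UIRI+Nx d7, 0.0147% in UIRI d7, 0.0305% in UIRI d3 and 0.0498% in Control of the first cohort, and at 0.0167%, 0.0176% and 0.0346% in UIRI+Nx d7, UIRI d7 and UIRI d3 of the second. For the transfer RNAs the means of UIRI+Nx d7 and UIRI d7 lay close together in both cohorts.

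Ribosomal RNAs took a larger portion of mitochondrial counts in block 2a than elsewhere. They were 32.0 ± 3.95% of mitochondrial counts in UIRI+Nx d7, 35.8 ± 11.4% in UIRI d7, 34.9 ± 9.69% in UIRI d3 and 26.9 ± 6.02% in Control of the first cohort, and 46.9 ± 9.74%, 38.3 ± 15.7% and 44.2 ± 4.14% in UIRI+Nx d7, UIRI d7 and UIRI d3 of the second. By block, over all groups, the range was 26.9 to 57.1% in 1a, 20.0 to 33.3% in 1b, 21.0 to 36.8% in 2b, 39.0 to 60.9% in 2a and 24.4 to 42.4% in 2c. Block 2a and block 2c of the same cohort nearly separate on this measure. Ribosomal results of the second cohort rest on this split, since all its UIRI d3 libraries are in 2a, and there time and block cannot be told apart outside 2a.

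**Figure D3:**
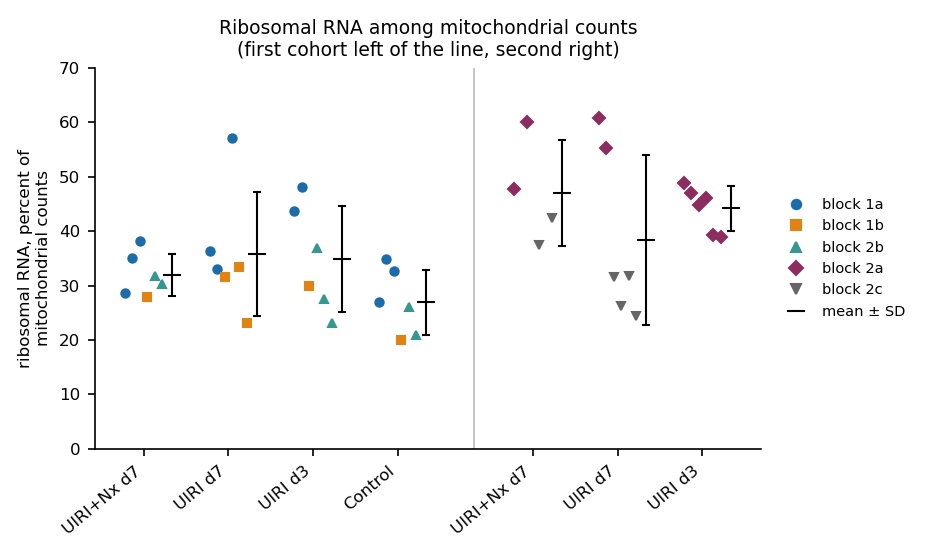
Ribosomal RNA counts as a percent of all mitochondrial counts per library, by group, with marker shapes for the library blocks. Libraries of block 2a range from 39.0 to 60.9% and those of block 2c from 24.4 to 42.4%.

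Against Control, most of the 23 tested transcripts fell in each injured group, and none rose. In UIRI d7 21 fell and 2 did not pass the test (median -2.08 on the log2 scale). In UIRI+Nx d7 16 fell (median -1.32), and in UIRI d3 14 fell (median -1.16). Over all 15701 genes tested, 18.1% fell and 21.5% rose in UIRI d7, 14% fell and 17.3% rose in UIRI+Nx d7, and 14.9% fell and 17.8% rose in UIRI d3, and the median log2 fold change over all genes was within 0.05 of 0. Groups did not overlap for 12 transcripts in UIRI d7, 11 in UIRI+Nx d7 and 7 in UIRI d3 against Control, where the same held for 20.5%, 17.1% and 18.4% of all genes. These 3 comparisons share the Control libraries. Without TMM the median of all genes shifts upward by 0.349, 0.266 and 0.261 in UIRI d7, UIRI+Nx d7 and UIRI d3, and no called fall changed sign.

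**Figure D4:**
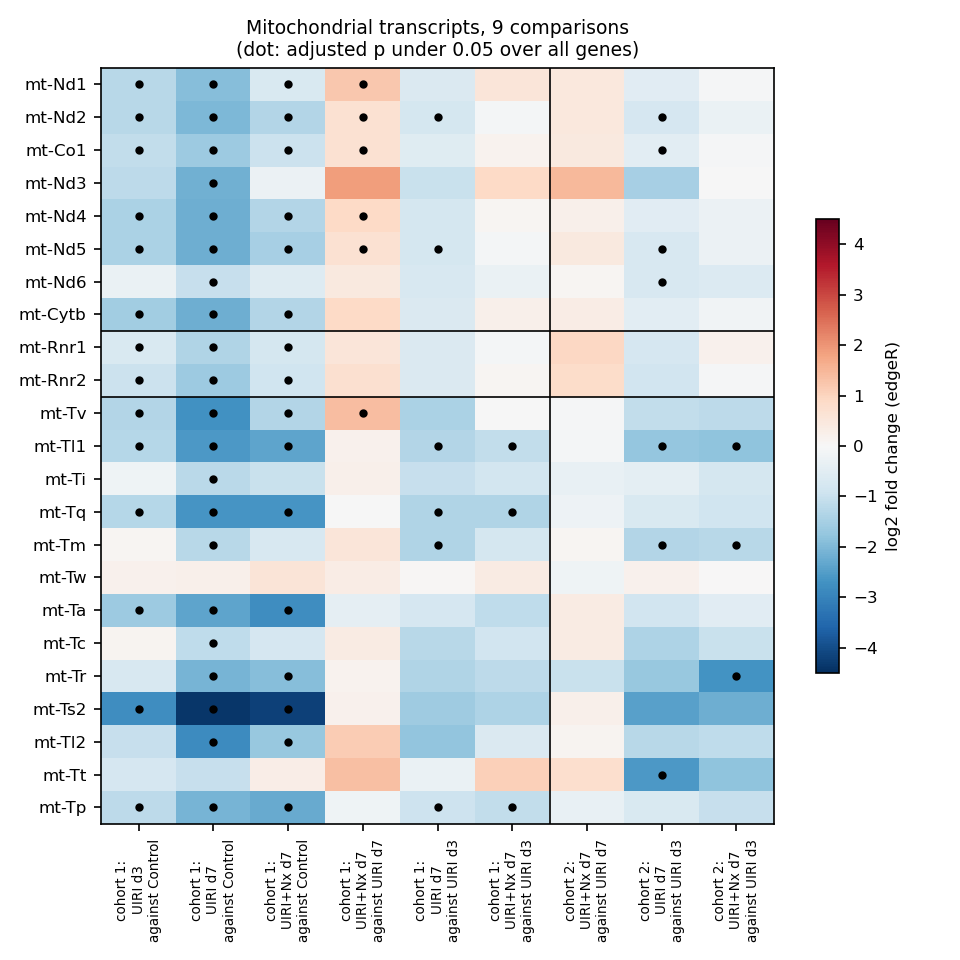
Log2 fold change of the 23 tested mitochondrial transcripts (rows) in 9 comparisons (columns, 6 of the first cohort and 3 of the second), with a dot where the adjusted p passed 0.05. Rows run from messenger to ribosomal to transfer RNAs, in gene order within each class. The UIRI d7 against Control column holds 21 dots, and the second cohort's UIRI+Nx d7 against UIRI d7 column holds none.

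Complex I is the entry point of electrons from NADH, and 7 of its subunits are mitochondrial. mt-Nd5, which codes for a proton-pumping subunit of its membrane arm, gave the smallest adjusted p of the mitochondrial genes in all 3 comparisons with Control. Its lowest, median and highest TMM-scaled CPM were 450.9, 568.8 and 744.2 in UIRI+Nx d7, 331.2, 353.1 and 392.3 in UIRI d7, 499.7, 557.0 and 783.5 in UIRI d3 and 1234, 1644 and 1916 in Control. Every Control kidney lay above every injured one, and UIRI d7 lay below both other injured groups without overlap. By edgeR's quasi-likelihood test with Benjamini-Hochberg adjustment, mt-Nd5 fell in UIRI d7 against Control by 2.19 on the log2 scale (SE 0.17, adjusted p 1.41e-10), in UIRI+Nx d7 by 1.49 (SE 0.16, adjusted p 7.29e-08) and in UIRI d3 by 1.41 (SE 0.16, adjusted p 1.43e-07).

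mt-Nd4 codes for another proton-pumping subunit and has the highest counts of the complex I messages. It ranged over 5356, 11300 and 14480 CPM (lowest, median, highest) in UIRI+Nx d7, 3728, 5895 and 8100 in UIRI d7, 7787, 10780 and 12380 in UIRI d3, and 17180, 29650 and 31020 in Control. Again no injured kidney reached the lowest Control. mt-Nd4 fell against Control by 2.21 on the log2 scale in UIRI d7 (SE 0.23, adjusted p 2.66e-08), by 1.32 in UIRI+Nx d7 (adjusted p 5.2e-05) and by 1.41 in UIRI d3 (adjusted p 2.09e-05).

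mt-Nd1 codes for a subunit at the ubiquinone site. Its CPM were 4764, 6756 and 7928 in UIRI+Nx d7, 1598, 2672 and 4260 in UIRI d7, 2950, 4377 and 6936 in UIRI d3, and 8398, 10810 and 12680 in Control. UIRI+Nx d7 lay between UIRI d7 and Control and overlapped neither. Against Control mt-Nd1 fell by 1.92 on the log2 scale in UIRI d7 (SE 0.23, adjusted p 1.78e-07), by 0.70 in UIRI+Nx d7 (SE 0.22, adjusted p 0.0162) and by 1.25 in UIRI d3 (SE 0.22, adjusted p 7.69e-05). The call in UIRI+Nx d7 was lost without TMM, within block 1a and within block 2b, with adjusted p up to 0.282. That in UIRI d3 was lost within block 2b (adjusted p 0.0543).

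mt-Nd2, a further membrane-arm subunit, fell against Control in all 3 injured groups, with log2 fold changes of -2.01 in UIRI d7, -1.32 in UIRI+Nx d7 and -1.24 in UIRI d3. Of the last 150 windows of 50 bases in mt-Nd2, 80 have an exact copy in the nuclear pseudogene Gm13339. mt-Nd3, which lies inside the copied stretch and had at most 20.2 CPM, fell in UIRI d7 by 2.17 (SE 0.78, adjusted p 0.0286) and was not called in the other 2 comparisons with Control. That call was lost in 8 of 20 alternative fits, among them those without Control replicate 1 or 6 or without UIRI d7 replicate 3, 4 or 5, and its adjusted p reached 0.16.

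mt-Nd6 is the sole message of the light strand. Its CPM were 8.49, 16.6 and 39.7 in UIRI+Nx d7, 6.31, 12.6 and 28.5 in UIRI d7, 10.6, 21.3 and 39.7 in UIRI d3, and 15.1, 29.3 and 40.3 in Control. All 4 groups overlapped. It fell in UIRI d7 against Control by 1.02 on the log2 scale (SE 0.39, adjusted p 0.0371), while the change was -0.57 in UIRI+Nx d7 (adjusted p 0.284) and -0.28 in UIRI d3 (adjusted p 0.622). The UIRI d7 call was lost in 10 of 20 alternative fits, 8 of them fits that left out a single library (UIRI d7 replicate 1, 2, 3, 4 or 6 or Control replicate 4, 5 or 6), with adjusted p up to 0.149. Whether the strands differ in their change was not tested.

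In complex III the only mitochondrial subunit is cytochrome b, which passes electrons from ubiquinol onward. Its message mt-Cytb had 5157, 8140 and 10750 CPM in UIRI+Nx d7, 1198, 4938 and 6553 in UIRI d7, 2906, 7166 and 11380 in UIRI d3, and 13250, 19930 and 30110 in Control. Injured and Control kidneys did not overlap. mt-Cytb fell against Control by 2.21 on the log2 scale in UIRI d7 (SE 0.33, adjusted p 4.42e-06), by 1.32 in UIRI+Nx d7 (SE 0.32, adjusted p 0.00191) and by 1.56 in UIRI d3 (SE 0.32, adjusted p 0.000366). The UIRI+Nx d7 call was lost within blocks 1a and 2b (adjusted p up to 0.121) and the UIRI d3 call within block 2b (adjusted p 0.0812).

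In complex IV, cytochrome c oxidase, mt-Co1 codes for the catalytic subunit and was the only mitochondrial message of the complex that could be tested. Its CPM were 492.5, 676.3 and 783.3 in UIRI+Nx d7, 319.9, 356.3 and 543.6 in UIRI d7, 499.2, 569.9 and 679.9 in UIRI d3, and 1108, 1268 and 1506 in Control. The gap to Control held for every injured library. mt-Co1 fell against Control by 1.65 on the log2 scale in UIRI d7 (SE 0.17, adjusted p 2.83e-08), by 0.97 in UIRI+Nx d7 (adjusted p 7.32e-05) and by 1.12 in UIRI d3 (adjusted p 1.14e-05). The last 483 bases of mt-Co1 (1063 to 1545) match Gm29216 on chromosome 1 with 1 mismatch. Each of the last 150 windows of 50 bases in mt-Co1 has an exact copy in an annotated nuclear transcript. Reads at its 3′ end can therefore fit 2 places equally well. No complex V message, mt-Atp6 or mt-Atp8, passed the filter.

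Both ribosomal RNAs fell against Control in every injured group. mt-Rnr1 had 2522, 3806 and 4951 CPM in UIRI+Nx d7, 1513, 2489 and 4047 in UIRI d7, 3206, 3989 and 5131 in UIRI d3, and 4518, 6731 and 7908 in Control. mt-Rnr2 had 6394, 11680 and 13700 in UIRI+Nx d7, 3334, 5966 and 9357 in UIRI d7, 6637, 10000 and 14230 in UIRI d3, and 9948, 20880 and 27810 in Control. UIRI d7 stood clear of Control for both, and the other injured groups overlapped it. The log2 fold changes were -1.34 for mt-Rnr1 (SE 0.21, adjusted p 9.49e-06) and -1.62 for mt-Rnr2 (SE 0.29, adjusted p 7.18e-05) in UIRI d7 against Control, and -0.79 (adjusted p 0.00425) and -0.90 (adjusted p 0.0178) in UIRI+Nx d7. In UIRI d3 they were -0.69 for mt-Rnr1 (adjusted p 0.0111) and -0.98 for mt-Rnr2 (adjusted p 0.0104). Both of these UIRI d3 calls were lost without TMM, within block 1a and within block 2b. The mt-Rnr2 call in UIRI+Nx d7 was lost without TMM, without Control replicate 3 and within block 2b, and the mt-Rnr1 call within blocks 1a and 2b.

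**Figure D5:**
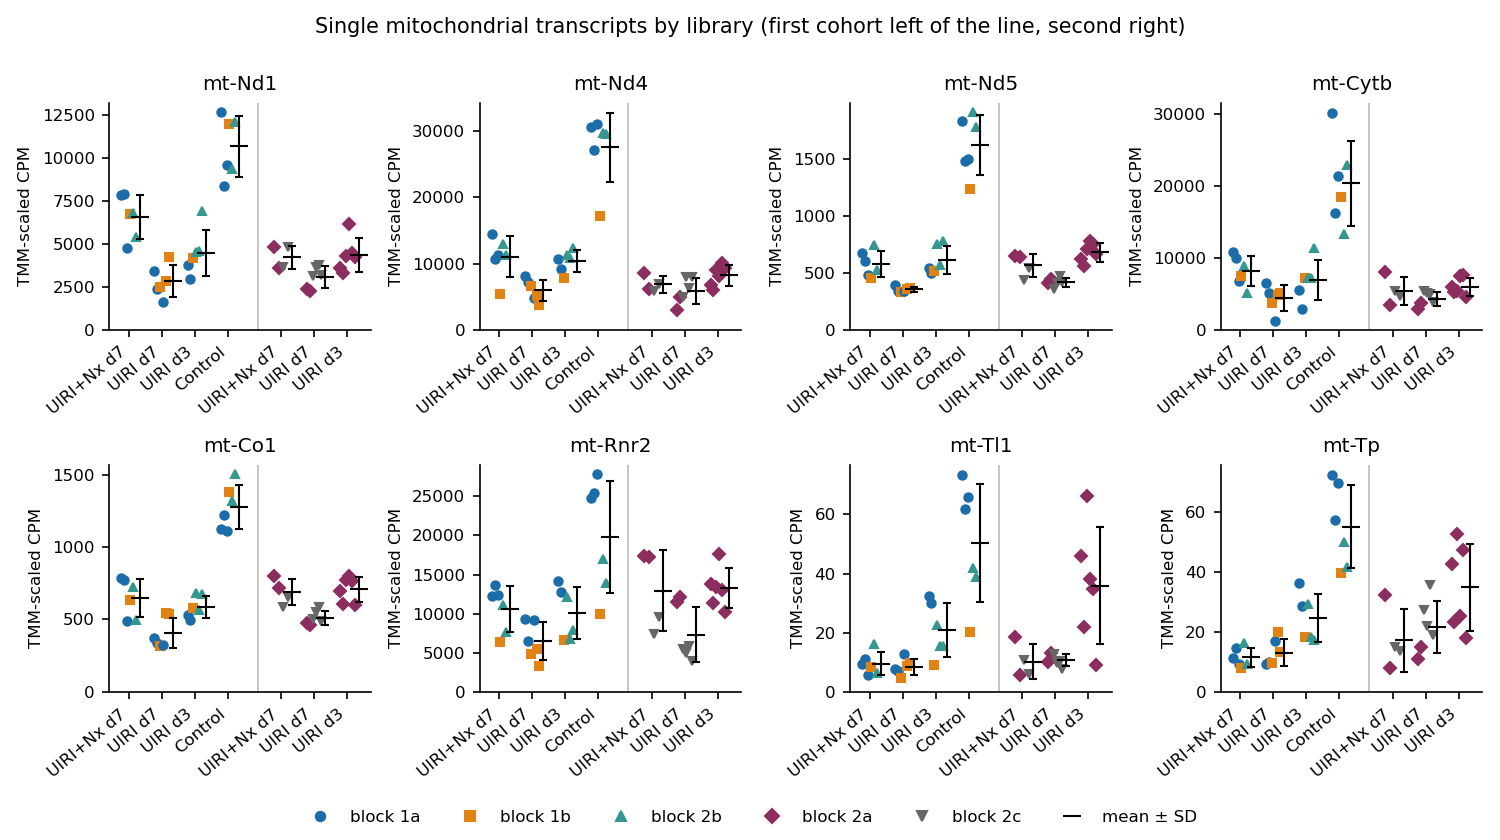
TMM-scaled CPM (linear axis) of mt-Nd1, mt-Nd4, mt-Nd5, mt-Cytb, mt-Co1, mt-Rnr2, mt-Tl1 and mt-Tp in every library by group and cohort. mt-Nd1 in UIRI+Nx d7 of the first cohort (4764 to 7928) lies above UIRI d7 (1598 to 4260), whereas mt-Tp lies at 7.99 to 16.2 and 9.23 to 19.9 in the same groups.

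Transfer RNAs bring amino acids to the mitochondrial ribosome and mark the cutting points of the precursors. The sequences of 6 of them are shown because they carry the day 3 to day 7 results below, with the anticodon in capitals. Each is in gene orientation, from the GENCODE annotation of GRCm38, for leucine (mt-Tl1, plus strand), glutamine (mt-Tq, minus), methionine (mt-Tm, plus), proline (mt-Tp, minus), arginine (mt-Tr, plus) and threonine (mt-Tt, plus).
mt-Tl1: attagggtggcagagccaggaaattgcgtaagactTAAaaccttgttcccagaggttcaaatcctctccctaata
mt-Tq: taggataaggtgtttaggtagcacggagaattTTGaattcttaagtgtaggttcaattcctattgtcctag
mt-Tm: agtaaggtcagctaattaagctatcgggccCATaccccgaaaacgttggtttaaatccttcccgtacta
mt-Tp: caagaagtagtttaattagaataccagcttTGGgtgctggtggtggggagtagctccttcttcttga
mt-Tr: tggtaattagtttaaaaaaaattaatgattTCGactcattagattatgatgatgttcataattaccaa
mt-Tt: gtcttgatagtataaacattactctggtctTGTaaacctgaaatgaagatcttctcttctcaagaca

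No transfer RNA passed 6561 counts in any library (mt-Tq), and whether the reads come from mature transfer RNAs or from longer precursors was not tested. The mt-Tp and mt-Tq genes are on the light strand opposite the heavy-strand precursor, and the strand setting of the counting is not given in the sources used here. If reads were counted without strand, those of mt-Tq, mt-Ta, mt-Tc, mt-Tp and mt-Nd6 cannot be told apart from heavy-strand precursor reads over the same bases.

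Of the 13 transfer RNAs tested, 11 fell in UIRI d7 against Control, 8 in UIRI+Nx d7 and 6 in UIRI d3. Over all genes 18.1%, 14% and 14.9% fell in the same order. mt-Tp had 7.99, 10.4 and 16.2 CPM in UIRI+Nx d7, 9.23, 11.6 and 19.9 in UIRI d7, 17.2, 23.5 and 36.3 in UIRI d3, and 39.7, 53.6 and 72.4 in Control. No injured library reached the Control range, and UIRI+Nx d7 did not overlap UIRI d3. mt-Tp fell against Control by 2.26 on the log2 scale in UIRI+Nx d7 (SE 0.25, adjusted p 7.91e-08), by 2.08 in UIRI d7 (adjusted p 1.84e-07) and by 1.16 in UIRI d3 (adjusted p 0.000403).

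mt-Tl1 had 5.78, 8.95 and 16.2 CPM in UIRI+Nx d7, 4.57, 8.27 and 12.7 in UIRI d7, 9.09, 18.9 and 32.3 in UIRI d3, and 20.3, 51.8 and 73.3 in Control. Both day 7 groups lay wholly below Control. Its log2 fold change was -2.38 in UIRI+Nx d7 (adjusted p 2.47e-06), -2.58 in UIRI d7 (adjusted p 5.89e-07) and -1.27 in UIRI d3 (adjusted p 0.00235) against Control. mt-Tq, with 11.97, 21.5 and 47.0 CPM in UIRI+Nx d7, 15.9, 19.9 and 42.9 in UIRI d7, 30.4, 49.1 and 131 in UIRI d3, and 88.7, 124 and 316 in Control, fell by 2.65 in UIRI+Nx d7 (SE 0.38, adjusted p 5.02e-06) and by 2.64 in UIRI d7 (adjusted p 3.5e-06). For this gene too the day 7 groups lay below all Control kidneys and close to each other.

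mt-Ts2, which carries serine, had very few reads and is named for the size of its log2 fold changes. It is highest in Control, the group through which it can pass the filter, so its changes are a description and support nothing. Its CPM were 0, 0.552 and 0.977 in UIRI+Nx d7, 0.172, 0.480 and 1.31 in UIRI d7, 0.283, 0.864 and 3.79 in UIRI d3, and 1.04, 2.52 and 38.1 in Control. Control replicates 1 and 3, at 38.1 and 15.8, stood far above the other 4 Control libraries. The log2 fold changes were -4.20 in UIRI+Nx d7 (SE 0.82, adjusted p 0.000237), -4.39 in UIRI d7 (SE 0.84, adjusted p 0.000129) and -2.79 in UIRI d3 (SE 0.74, adjusted p 0.00417). All 3 calls were kept when any single library was left out.

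Of the other transfer RNAs, mt-Ta (alanine) and mt-Tv (valine) fell against Control in all 3 injured groups. mt-Tl2 (leucine) and mt-Tr fell in the 2 day 7 groups, and the mt-Tl2 call in UIRI+Nx d7 (adjusted p 0.0378) was lost in 13 of 21 alternative fits. mt-Tm, mt-Ti (isoleucine) and mt-Tc (cysteine) fell in UIRI d7, with log2 fold changes of -1.25, -1.23 and -1.15, and were not called in the other 2 comparisons with Control, and the mt-Ti call was lost in 8 of 20 alternative fits. mt-Tt and mt-Tw (tryptophan) were called in no comparison with Control, mt-Tw at -0.19 to 0.56 over all 9 comparisons.

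Sums of cell markers were set beside these changes. Summed over 12 proximal tubule markers, CPM ranged from 3296 to 7177 in UIRI+Nx d7, 3901 to 5278 in UIRI d7, 5743 to 7008 in UIRI d3 and 14260 to 17379 in Control of the first cohort. Of the 12 markers, 9 fell in UIRI+Nx d7, 12 in UIRI d7 and 11 in UIRI d3 against Control. Over all genes 14%, 18.1% and 14.9% fell in the same order. The 7 thick ascending limb and distal convoluted tubule markers summed to 1730 to 2930, 1354 to 2019, 2080 to 3020 and 4896 to 6855 in the order UIRI+Nx d7, UIRI d7, UIRI d3 and Control. Each fell against Control except Cldn16 and Trpm6 in UIRI+Nx d7, Trpm6 in UIRI d7, and Umod and Cldn16 in UIRI d3, which were not called. The 12 macrophage and monocyte markers summed to 1245 to 2257 in UIRI+Nx d7, 1611 to 3357 in UIRI d7, 511 to 980 in UIRI d3 and 191 to 346 in Control, and the 8 fibroblast markers to 2255 to 3056, 1616 to 2670, 1542 to 2352 and 375 to 494. In the second cohort the proximal tubule sums were 4454 to 5277 in UIRI+Nx d7, 4533 to 7081 in UIRI d7 and 6863 to 8334 in UIRI d3, and the macrophage and monocyte sums 1580 to 2223, 1903 to 3496 and 878 to 1346. Proximal tubule sums were thus higher in UIRI d3 than in UIRI d7 with no overlap in cohort 1 and a slight overlap in cohort 2. Between UIRI+Nx d7 and UIRI d7 these proximal tubule sums overlapped in both cohorts, while the mean mitochondrial share was higher in UIRI+Nx d7. Slc12a1 of the thick ascending limb averaged 945 CPM in UIRI+Nx d7 and 612 in UIRI d7 of cohort 1, and 988 and 693 in cohort 2. The tested thick ascending limb and distal convoluted tubule markers were all higher in UIRI+Nx d7 except Pvalb in cohort 1 and Umod and Trpm6 in cohort 2. None of them was called in this comparison. The part of these cells in the mitochondrial results was not tested. Brown fat markers, which would bring mitochondria-rich tissue, summed to at most 175 CPM, skeletal muscle markers to at most 7.91 with 3 of 7 genes at 0 in each group of the first cohort, and adrenal cortex markers to at most 6.23. The brown fat markers were uneven between libraries, as Ucp1 averaged 10.1 ± 24.1 and Cidea 10.6 ± 22.3 in Control (SD, n = 6). Dio2 of the same list averaged 3.43 in Control and 60.6 in UIRI d7 of the first cohort. The part of such tissue in the share was not tested.

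Nephrectomy of the uninjured kidney was set against sham nephrectomy on day 7. In the first cohort 6 of 23 mitochondrial transcripts rose in UIRI+Nx d7 against UIRI d7 and none fell. The median over the 23 was 0.56 on the log2 scale. Over all genes 3.17% rose and 3.46% fell in that comparison. The 6 were the messages mt-Nd1, mt-Nd5, mt-Nd4, mt-Co1 and mt-Nd2 and the transfer RNA mt-Tv. Groups did not overlap for mt-Nd1 and mt-Nd5, which held for 3.01% of all genes.

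mt-Nd1 rose by 1.22 on the log2 scale (SE 0.22, adjusted p 0.00126), from the CPM values given above, and was the mitochondrial gene with the smallest adjusted p here. mt-Nd4 rose by 0.89 (SE 0.23, adjusted p 0.0159), mt-Nd5 by 0.70 (SE 0.16, adjusted p 0.00793), mt-Co1 by 0.68 (SE 0.17, adjusted p 0.0161) and mt-Nd2 by 0.69 (SE 0.21, adjusted p 0.0408). mt-Cytb, at 0.89 (SE 0.31, adjusted p 0.0909), and both ribosomal RNAs, at 0.56 for mt-Rnr1 (adjusted p 0.109) and 0.71 for mt-Rnr2 (adjusted p 0.146), did not pass the test. The mt-Nd2 call was lost in 14 of 20 alternative fits. Within block 1a, with 3 libraries a group, none of the 6 passed, while mt-Nd1 was 1.48 (adjusted p 0.0883) and mt-Nd5 0.71 (adjusted p 0.17) higher on the log2 scale.

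Of the 13 transfer RNAs tested in this comparison, mt-Tv was the one called. mt-Tv rose by 1.40 (SE 0.39, adjusted p 0.031), with CPM of 2.21, 4.62 and 8.83 in UIRI+Nx d7 and 0.926, 1.85 and 2.67 in UIRI d7, and this was the largest change among the called genes. The groups overlapped slightly, and the call was lost without UIRI+Nx d7 replicate 4 or 5 or without UIRI d7 replicate 2, 5 or 6. Of the others, mt-Tl1 was at 0.20 (adjusted p 0.796), mt-Tq at -0.01 (adjusted p 0.996), mt-Tp at -0.18 (adjusted p 0.735) and mt-Ta at -0.41 (adjusted p 0.648). The medians were 0.79 over the 8 messages, 0.64 over the 2 ribosomal RNAs, 0.21 over the 13 transfer RNAs and -0.01 over the 5 tested light-strand genes, a difference between classes that was not tested.

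No mitochondrial transcript of the second cohort was called in UIRI+Nx d7 (n = 4) against UIRI d7 (n = 6) by edgeR's quasi-likelihood test, while 5.24% of all genes were. At an unadjusted p under 0.05 there were 6, and DESeq2 called 4, namely mt-Nd2, mt-Co1, mt-Nd5 and mt-Rnr1, all higher. mt-Nd5 had 650, 644, 436 and 545 CPM in the 4 UIRI+Nx d7 libraries, and 357.6, 414.2 and 468.2 (lowest, median, highest) in UIRI d7. Of these 4 libraries 3 lay above all UIRI d7 libraries. Its log2 fold change was 0.45 (SE 0.14, adjusted p 0.0641), and that of mt-Co1 was 0.43 (SE 0.13, adjusted p 0.0576).

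mt-Co1 had 801, 714, 589 and 655 CPM in UIRI+Nx d7 against 460.5 to 586.0 in UIRI d7, and mt-Nd2 had 3619, 3867, 2780 and 2701 against 2096 to 2579. These 2 genes did not overlap between the groups, as did 6.05% of all genes. mt-Nd2 stood at 0.48 (SE 0.16, adjusted p 0.0929). mt-Nd1 had 4808, 3629, 3640 and 4802 CPM in UIRI+Nx d7 and 2252, 3186 and 3760 in UIRI d7, with a log2 fold change of 0.46 (SE 0.19, adjusted p 0.186). mt-Nd4 had 8632, 6112, 5788 and 6899 in UIRI+Nx d7 and 2917, 5627 and 7967 in UIRI d7 (0.23, adjusted p 0.637), and mt-Cytb had 8078, 3408, 5406 and 4688 in UIRI+Nx d7 and 2889, 4422 and 5330 in UIRI d7 (0.33, adjusted p 0.467). Both overlapped broadly. mt-Nd6 stood at 0.10 (adjusted p 0.833).

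Among the 6 genes with most counts, the ribosomal RNAs differed most in this comparison of the second cohort, without passing the test. mt-Rnr1 had 7280, 10486, 3844 and 5475 CPM in UIRI+Nx d7 against 6493, 5706, 2110, 2230, 2768 and 1976 in UIRI d7, with a log2 fold change of 0.93 (SE 0.32, adjusted p 0.107). mt-Rnr2 had 17400, 17305, 7408 and 9605 in UIRI+Nx d7 against 11445, 12168, 5545, 4999, 5919 and 3922 in UIRI d7, with a change of 0.82 (SE 0.30, adjusted p 0.138). In each group the first 2 libraries listed, those of block 2a, lay above those of block 2c. Within the blocks the log2 changes of mt-Rnr1 were 0.54 in 2a (adjusted p 0.435) and 1.02 in 2c (adjusted p 0.191).

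The cohorts were then compared by an interaction term in an edgeR fit over both, with 16606 genes, which called 0 genes (0%) in each of 3 comparisons. For UIRI+Nx d7 against UIRI d7 the log2 fold change of mt-Nd1 was 0.75 larger in the first cohort (SE 0.30, unadjusted p 0.0168, adjusted p 0.557) and that of mt-Tv 1.45 larger (unadjusted p 0.0242, adjusted p 0.557). These 2 were the mitochondrial genes with an unadjusted p under 0.05 there, and in each of the other 2 comparisons mt-Tt was the only one. The results of the cohorts are therefore not shown to differ for any of the 23 genes.

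From day 3 to day 7 after UIRI without nephrectomy, 6 of 23 transcripts fell in cohort 1 and 7 in cohort 2, and none rose in either. Over all genes 1.36% fell and 1.24% rose in cohort 1, and 4.05% fell and 4.51% rose in cohort 2. The median over the 23 for UIRI d7 against UIRI d3 was -0.80 in cohort 1 and -0.77 in cohort 2 (log2). mt-Nd5, mt-Nd2, mt-Tl1 and mt-Tm fell in both. With library block as a covariate 1 call was left in each cohort, that of mt-Nd5 (log2 -0.57 in both, adjusted p 0.036 in cohort 1 and 0.0476 in cohort 2). Under that fit mt-Nd2 stood at -0.55 (adjusted p 0.164) and -0.59 (adjusted p 0.0817), mt-Tl1 at -1.14 (adjusted p 0.0573) and -1.54 (adjusted p 0.102) and mt-Tm at -0.85 (adjusted p 0.255) and -1.42 (adjusted p 0.0621) in cohorts 1 and 2, and mt-Tq and mt-Tp of cohort 1 and mt-Co1, mt-Nd6 and mt-Tt of cohort 2 also lost their calls. All UIRI d3 libraries of cohort 2 are in block 2a, so only its 2 UIRI d7 libraries of that block share a block with them.

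mt-Nd5 fell by 0.78 in the first cohort (SE 0.16, adjusted p 0.0067) and by 0.71 in the second (SE 0.12, adjusted p 0.00111). Its CPM in the second cohort were 357.6, 414.2 and 468.2 in UIRI d7 and 560.1, 686.8 and 780.2 in UIRI d3, and the groups did not overlap in either cohort. Non-overlap held for 2.38% of all genes in cohort 1 and 5.46% in cohort 2. mt-Nd2 fell by 0.78 (adjusted p 0.0398) and 0.77 (adjusted p 0.00237) in the first and second cohort, and the first of these calls was lost in 14 of 20 alternative fits. There mt-Co1 also fell, by 0.47 (SE 0.12, adjusted p 0.016), and mt-Nd6 by 0.71 (SE 0.18, adjusted p 0.0198), where mt-Nd6 had 17.1, 20.4 and 22.6 CPM in UIRI d7 and 21.2, 32.5 and 48.3 in UIRI d3. mt-Nd1, mt-Nd4, mt-Cytb, mt-Rnr1 and mt-Rnr2 were lower by 0.48 to 0.85 in both cohorts and did not pass the test in either.

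The median log2 change over this interval was -1.31 for the 13 transfer RNAs and -0.76 for the 8 messages in cohort 1, and -1.26 and -0.60 in cohort 2, a difference between classes that was not tested. mt-Tl1 fell by 1.31 in the first cohort (SE 0.32, adjusted p 0.0242) and by 1.73 in the second (SE 0.35, adjusted p 0.00416), where it had 7.85, 10.4 and 13.1 CPM in UIRI d7 and 9.08, 36.4 and 66.1 in UIRI d3. mt-Tm fell by 1.35 in the first (adjusted p 0.0378) and by 1.33 in the second (SE 0.28, adjusted p 0.00508), with 26.1, 35.6 and 41.6 CPM in UIRI d7 and 29.6, 97.3 and 137 in UIRI d3 of the second. For both genes the groups overlapped through the lowest UIRI d3 library. mt-Tq fell by 1.36 (adjusted p 0.0445) and mt-Tp by 0.92 (adjusted p 0.0376) in the first cohort, against -0.69 (adjusted p 0.365) and -0.70 (adjusted p 0.208) in the second. The mt-Tq, mt-Tm and mt-Tp calls of the first cohort were each lost in 11 or 12 of 20 alternative fits.

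mt-Tt had the largest change of this comparison in the second cohort. It had 0.853, 1.34 and 1.87 CPM in UIRI d7 and 1.48, 5.01 and 23.6 in UIRI d3, and fell by 2.57 on the log2 scale (SE 0.54, adjusted p 0.00478). In the first cohort it had 1.57, 4.20 and 11.1 CPM in UIRI d7 and 2.54, 4.56 and 10.4 in UIRI d3, with a change of -0.28 (adjusted p 0.881). The difference between the cohorts was 2.30 (SE 0.76, unadjusted p 0.00428, adjusted p 0.9998) and did not pass the test. Within block 2a, with 2 UIRI d7 libraries, none of the 7 calls of the second cohort was kept, and mt-Nd5 was lower by 0.68 on the log2 scale there (adjusted p 0.0621).

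In UIRI+Nx d7 against UIRI d3, 3 transfer RNAs fell in each cohort, and no message or ribosomal RNA passed the test by edgeR or DESeq2. Over all genes, 3.06% fell and 2.06% rose in cohort 1, and 3.04% fell and 2.97% rose in cohort 2. mt-Nd5 stood at -0.08 in the first cohort (SE 0.16, adjusted p 0.865) and at -0.26 in the second (SE 0.14, adjusted p 0.305). The messages with an unadjusted p under 0.05 were mt-Nd1 in the first cohort, at 0.55 (SE 0.22, adjusted p 0.166), and mt-Nd6 in the second, at -0.61 (SE 0.21, adjusted p 0.0959). The largest message value was that of the rarely read mt-Nd3 in the first cohort, at 0.89 (SE 0.74, adjusted p 0.592). In the first cohort mt-Tp fell by 1.10 (SE 0.24, adjusted p 0.0068), mt-Tq by 1.36 (SE 0.37, adjusted p 0.027) and mt-Tl1 by 1.11 (SE 0.32, adjusted p 0.0398). mt-Tp was the only mitochondrial gene whose groups did not overlap, which held for 3.45% of all genes.

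In the second cohort mt-Tl1 fell by 1.82 (SE 0.41, adjusted p 0.01), mt-Tm by 1.26 (SE 0.32, adjusted p 0.022) and mt-Tr by 2.7 (SE 0.76, adjusted p 0.0382). mt-Tr had 0.120 to 0.622 CPM in UIRI+Nx d7 and 0.435 to 4.24 in UIRI d3 and lies inside the copied stretch. mt-Ti was the gene whose groups did not overlap, as for 6.79% of all genes, at a log2 change of -0.79 (adjusted p 0.221). The number of calls moved with single libraries. In the first cohort it was 1 without UIRI+Nx d7 replicate 1, 3 or 4 or UIRI d3 replicate 4, and 5 without UIRI+Nx d7 replicate 5. In the second it was 1 without UIRI+Nx d7 replicate 2, 3 or 4 or UIRI d3 replicate 3, 5 without UIRI+Nx d7 replicate 1, and 6 without UIRI d3 replicate 6. This comparison shares its libraries with the others, so its values are not separate evidence.

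Nuclear genes of the same complexes were set beside the mitochondrial ones. Of 79 tested nuclear respiratory subunits, 72 fell in UIRI d7 against Control (median log2 fold change -1.01), 40 in UIRI+Nx d7 (median -0.57) and 61 in UIRI d3 (median -0.85), and none rose. Over all genes 18.1%, 14% and 14.9% fell and 21.5%, 17.3% and 17.8% rose in the same order. By complex, in UIRI d7 34 of 36 fell in complex I, 3 of 4 in II, 9 of 9 in III, 11 of 13 in IV and 15 of 17 in V. In UIRI+Nx d7 the counts were 23, 2, 5, 4 and 6. Ndufa10, a complex I subunit, averaged 138 ± 12.8 CPM in UIRI d7 and 363 ± 65.1 in Control (SD, n = 6 each), a log2 fold change of -1.39 (adjusted p 1.85e-08). Ndufs1, which holds iron-sulfur clusters of complex I, averaged 97.8 ± 10.8 in UIRI d7 and 272 ± 25.9 in Control, a change of -1.48 (adjusted p 2.6e-08).

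In UIRI+Nx d7 against UIRI d7, 9 of these 79 genes rose in the first cohort (median 0.46), where 3.17% of all genes rose. The second cohort had 3 of 79 higher (median 0.10), a share no larger than the 5.24% of all genes called there in either direction. None of the 79 fell in either. In the first they included Ndufa10 at 0.71 (adjusted p 0.00257) and Uqcrq of complex III at 0.81 (adjusted p 0.00488). In the second they were Atp5g1 at 0.46 (adjusted p 0.0125), Ndufs3 at 0.54 (adjusted p 0.0366) and Ndufs6 at 0.63 (adjusted p 0.0462). Ndufs3 was the gene called in both cohorts. From day 3 to day 7 without nephrectomy edgeR called 0 of the 79 in cohort 1, with 6 at an unadjusted p under 0.05, while in cohort 2 Ndufs3 fell by 0.68 (adjusted p 0.00256) and Atp5g1 by 0.44 (adjusted p 0.00585). That share of the 79 is no larger than the 4.05% of all genes that fell in cohort 2.

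Genes that make and handle mitochondrial RNA were mostly not called. Of 24 tested, 6 fell in UIRI d7, 3 in UIRI+Nx d7 and 4 in UIRI d3 against Control, where 18.1%, 14% and 14.9% of all genes fell, shares near those of the list. Grsf1, an RNA granule protein, fell in UIRI d7 by 1.40 (adjusted p 1.43e-07) and Hsd17b10, a subunit of the mitochondrial RNase P that cuts transfer RNAs out of precursors, by 0.85 (adjusted p 9.95e-06). In UIRI+Nx d7 against UIRI d7 of the first cohort these were the 2 called genes, Grsf1 at 0.60 (adjusted p 0.0225) and Hsd17b10 at 0.56 (adjusted p 0.0108), and none was called in the second by edgeR, with 2 at an unadjusted p under 0.05. Tfam, which packs mitochondrial DNA and helps to start its transcription, fell in UIRI d7 against Control by 0.77 (adjusted p 0.0196) and was called in none of the other 8 comparisons.

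Of 76 tested mitochondrial ribosomal protein genes, 41 fell in UIRI d7, 19 in UIRI+Nx d7 and 19 in UIRI d3 against Control (18.1%, 14% and 14.9% of all genes), with 1, 2 and 1 higher. Mrpl34 averaged 50.5 ± 5.66 CPM in UIRI d7 and 95.6 ± 14.5 in Control, and it rose in UIRI+Nx d7 against UIRI d7 by 0.51 (adjusted p 0.0223) as did Mrpl20 by 0.64 (adjusted p 0.0139). Of 15 genes of mitochondrial DNA replication and upkeep, 5 fell in UIRI d7, 3 in UIRI+Nx d7 and 4 in UIRI d3, which at this list size is not far from those shares of all genes. Slc25a33, a pyrimidine nucleotide carrier, fell in UIRI d7 by 1.62 (adjusted p 2.79e-07) and rose in UIRI+Nx d7 against UIRI d7 by 0.85 (adjusted p 0.00851).

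Of 12 regulators of mitochondrial biogenesis, 6 fell and 3 rose in UIRI d7 against Control, where 18.1% of all genes fell and 21.5% rose, so the number that rose is near the background. Ppargc1a, the coactivator PGC-1α, averaged 70.5 ± 8.15 CPM in UIRI d7 and 157 ± 24.3 in Control (log2 change -1.15, adjusted p 1.03e-06), and Esrrb, an estrogen-related receptor, fell by 2.02. Myc, a transcription factor of cell growth, rose by 3.41 (adjusted p 5.53e-06), to 5.55 ± 3.49 CPM in UIRI d7, against 0.510 ± 0.338 in Control. Ppara, a nuclear receptor for fatty acid oxidation genes, was the regulator that rose in UIRI+Nx d7 against UIRI d7 in both cohorts. It averaged 69.6 ± 40.9 in UIRI+Nx d7 and 23.7 ± 7.24 in UIRI d7 of the first cohort (1.55, SE 0.31, adjusted p 0.00272) and 116 ± 37.3 in UIRI+Nx d7 (n = 4) and 42.8 ± 11.5 in UIRI d7 (n = 6) of the second (1.44, SE 0.25, adjusted p 0.00209).

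Of 12 mitophagy genes, which clear damaged mitochondria, 4 fell and none rose in UIRI d7 against Control, beside 18.1% and 21.5% of all genes. Pink1, the kinase that marks such mitochondria, averaged 88.0 ± 15.5 CPM in UIRI d7 and 213 ± 39.3 in Control, a log2 fold change of -1.28 (adjusted p 2.74e-05). In UIRI+Nx d7 against UIRI d7 of the first cohort Bnip3, a receptor for hypoxia-linked mitophagy, rose by 0.85 on the log2 scale (adjusted p 0.034). None of the 12 was called by edgeR in this comparison of the second cohort, and 0 had an unadjusted p under 0.05.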

How the data were processed

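RNA of mouse kidney was measured in 41 libraries, and 40 had a group. The deposited values are raw counts per gene in a single table. Per the submitters' processing notes, Trimmomatic, STAR and HTSeq 0.6.1 with GRCm38 (mm10) made the first cohort's counts, and STAR 2.7.11b with GRCm39 the second's. The sources used here give no annotation release, strand or multiple-mapping setting. Symbols were found for 48349 of 48795 identifiers.

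From the counts, shares of library totals were computed, and edgeR 4.0.16 (R 4.3.3, quasi-likelihood F test, TMM, filterByExpr, Benjamini-Hochberg over all genes, threshold 0.05) was fitted per cohort with all its groups. This tested 15701 and 15543 genes. CPM use TMM-scaled library sizes, and the SE of a log2 fold change is its size over the root of F. A joint fit tested cohort differences. Nuclear copies were sought among annotated transcripts with BLAST 2.17.0 at 95% identity or more. DESeq2 1.42.0, other scaling, filters, blocks and left-out libraries were alternatives. The fit was tested on simulated data. Library totals of 5090418 or more limit precision, and counting error alone enters no test.

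The mitochondrial genes and all lists were chosen with earlier results of these data known. Named in full by rule were both ribosomal RNAs, the highest message per complex, mt-Nd6, and per comparison the mitochondrial gene with the smallest adjusted p and that with the largest called change. For other lists up to 3 genes with the smallest adjusted p are named, and further ones were chosen after their values were seen. Column names gave the blocks, through their sheet and library numbers. Replicate numbers did not pair libraries: correlations of equal numbers ran from -0.48 to 0.518. No library pair looked like a duplicate (lowest chi-square per degree of freedom 7.96). Values of some listed genes are not reported here.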

Additional observations from a re-analysis of the deposited data

Results flagged for a closer look

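Single libraries stood far from the other libraries of their group in 17 of 196 group values examined, where chance gives about 1 in 20. Values are TMM-scaled CPM unless said otherwise, with the range of the other libraries. No explanation was tested.

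Among messages of the first cohort, mt-Nd6 was 28.5 in UIRI d7 replicate 5 (others 6.31 to 13.9), mt-Nd3 was 15.0 in UIRI d3 replicate 6 (0.257 to 5.31), and mt-Nd4 was low in Control replicate 4 at 17200 (27100 to 31000). Among transfer RNAs, mt-Tc was 7.39 in UIRI+Nx d7 replicate 5 (1.7 to 3.74). In UIRI d7, mt-Ta was 96.4 in replicate 4 (13.5 to 29.9), mt-Tw 4.01 in replicate 5 (0.115 to 1.03) and mt-Ts2 1.31 in replicate 6 (0.172 to 0.577). In UIRI d3, mt-Tm was 237 (44.4 to 78.3) and mt-Ti 27.3 (4.11 to 11.4), both in replicate 6, which was also the high library for mt-Nd3, and mt-Tq was 131 in replicate 4 (30.4 to 66.8). In Control replicate 5, mt-Tq was 316 (88.7 to 136).

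In the second cohort, UIRI+Nx d7 replicate 1 held mt-Nd3 at 13 (0.748 to 2.21) and a messenger RNA share of 2.64% of all counts (1.75 to 1.9%), and in replicate 2 mt-Tl2 was low at 0.359 (0.622 to 0.665). mt-Tv was 5.21 in UIRI d7 replicate 5 (1.91 to 3.12). UIRI d3 replicate 4 held mt-Nd3 at 13.2 (1.61 to 3.94) and mt-Tl2 at 3.52 (0.247 to 1.28). Of the 17, 3 concern mt-Nd3, which has few counts and a nuclear copy.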

How the results depend on the processing

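Mitochondrial transcripts called, of 23, moved with these choices, and no called log2 fold change changed sign. The share difference of UIRI+Nx d7 against UIRI d3 did, to -0.115 points within 2b in the first cohort and 0.397 within 2a in the second. UIRI d7 against UIRI d3 of the first cohort (6 called) gave 12 with DESeq2, 3 without TMM, 1 with library block as covariate, 3 with only its 2 groups fitted and 0 within block 1a. UIRI+Nx d7 against UIRI d7 gave 2 with only its 2 groups and 0 within 1a. UIRI+Nx d7 against UIRI d3 gave 1 within 1a and 0 within 2b. Within 2b, UIRI d3 and UIRI+Nx d7 against Control gave 6 each. In the second cohort, UIRI+Nx d7 against UIRI d7 gave 4 with DESeq2 and 2 with block as covariate. UIRI d7 against UIRI d3 (7 called) gave 13 with DESeq2, 1 with block as covariate and 0 within 2a. UIRI+Nx d7 against UIRI d3 gave 5 without a filter, 1 with only its 2 groups and 0 within 2a.

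With replicate number as a block, which the labels do not pair (in 17 of 100 checks, libraries summed over comparisons, a library correlated best with its own number), UIRI d7 against UIRI d3 of the second cohort gave 11, and no other count moved by over 1.5 times. Leaving out 1 library each gave, against Control, 18 to 21 in UIRI d7, 14 to 18 in UIRI+Nx d7 and 14 to 15 in UIRI d3. UIRI+Nx d7 against UIRI d7 gave 4 to 6 in the first cohort and 0 to 2 in the second (2 without UIRI+Nx d7 replicate 3, 1 without UIRI d7 replicate 1), and UIRI+Nx d7 against UIRI d3 gave 1 to 5 and 1 to 6. UIRI d7 against UIRI d3 gave 1 to 8 in the first (1 without UIRI d7 replicate 2 or 3, 2 without UIRI d3 replicate 4, 3 without UIRI d3 replicate 1) and 7 to 10 in the second.

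Differences in share of counts, in percentage points, moved when genes with a nuclear copy were left out, to -3.37 in UIRI d7, -2.12 in UIRI+Nx d7 and -2.48 in UIRI d3 against Control. Over messenger RNAs alone they were -4.22 for UIRI d7 against Control, and in the second cohort 0.356 for UIRI+Nx d7 against UIRI d7 and -0.734 for UIRI d7 against UIRI d3. Leaving out 1 library gave -5.97 to -5.10, -4.12 to -3.24 and -4.52 to -3.64 for UIRI d7, UIRI+Nx d7 and UIRI d3 against Control. For UIRI+Nx d7 against UIRI d7 it gave 1.65 to 2.11 in the first cohort and 0.740 to 1.47 in the second, for UIRI d7 against UIRI d3 -1.67 to -1.24 and -1.71 to -1.34, and for UIRI+Nx d7 against UIRI d3 0.198 to 0.657 and -0.813 to -0.0859. The cause of each move was not tested, beyond fewer libraries or genes by construction.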

Other observations

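The nuclear copies of mitochondrial genes were tested as rows of the same fits. All 11 copies that passed the filter in the first cohort fell against Control in each injured group, with median log2 fold changes of -2.66 in UIRI d7, -2.02 in UIRI+Nx d7 and -1.71 in UIRI d3. Over all genes 18.1%, 14% and 14.9% fell in the same order. In that cohort Control replicate 1 had the highest CPM of every copy. The rare copies Gm10222 and Gm4076 were highest in Control and pass the filter largely through it, so their falls support nothing. Gm28437 was -2.15 in UIRI+Nx d7 against Control (adjusted p 0.00048), -1.84 in UIRI d3 against Control (adjusted p 0.00192) and 0.50 in UIRI+Nx d7 against UIRI d7 (adjusted p 0.5701). In the second cohort 10 copies were tested, of which Gm10925, the copy of mt-Atp6, rose in UIRI+Nx d7 against UIRI d7 by 0.82 (adjusted p 0.0367), and 6 fell in UIRI d7 against UIRI d3 (median -0.94). Reads listed under these copies cannot be told apart from mitochondrial reads where the sequences are identical.

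The library with no group in the labels held 12446693 counts. Its mitochondrial share was 4.83%, with 2.97% from messenger, 1.83% from ribosomal and 0.0317% from transfer RNAs, and ribosomal RNAs were 37.9% of its mitochondrial counts.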
